A study of Mus musculus with 12 samples.

Results

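The genes described here are the MYC network genes: Myc, Mycn and Mycl, their partner Max, and the genes whose proteins compete for MAX, Mga, Mxd1, Mxd3, Mxd4, Mxi1 and Mnt. They are the rows of the deposited count table that carry 1 of these 10 symbols, and all 10 were found among its 54532 genes. Their levels were measured by polyA-selected RNA-seq in E14 cells, a widely used line of mouse embryonic stem cells, grown on gelatin in serum medium with LIF and the 2i inhibitors PD0325901 and CHIR99021. Every group received a 6 h exposure, either to 1 uM doxorubicin or to the DMSO vehicle, and the medium was then replaced by medium without drug. How long the cells stayed in that medium before RNA extraction is not given in the sources used here. Cells were wild type (WT), p53 KO or Dux KO, which gives 6 groups of 2 libraries each, and the series calls the duplicates biological. Each knockout was represented by a line numbered 1 and a line numbered 2, each given both treatments, so that the 2 libraries of a knockout group come from different lines. The file columns of the wild-type libraries carry no replicate number, and these libraries are called a and b here only as names.

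MYC proteins bind DNA as heterodimers with MAX at E-box sequences and raise the transcription of genes for ribosome assembly, nucleotide synthesis and metabolism. MXD proteins, MXI1 (also called MXD2) and MNT bind the same partner and recruit SIN3 corepressors to the same sites, and MGA joins MAX to a Polycomb complex that keeps germline genes silent in stem cells. In mouse embryonic stem cells Mycn and Myc support growth in overlapping ways, and naive culture conditions are known for low Myc. Doxorubicin is an anthracycline that traps topoisomerase II and breaks DNA, which activates p53. Dux encodes the double-homeobox transcription factor that switches on genes of the 2-cell embryo.

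Sequence before the start site is shown for the genes on which the results turn and whose window held a motif. Windows of 250 bases before the RefSeq start (build GRCm38.p6) were matched by symbol for 9 of the 10 members, Mxi1 with 3 starts. The sequences are those of RefSeq. The part of a window that lies outside the annotated gene is printed 5′ to 3′ on the gene's strand, with CACGTG, TTTGGCGC and TTTCGCGC in capitals. The Mycn sequence runs over chr12:12941915-12942086 (minus strand) and the Mxd4 sequence over chr5:34187721-34187960 (minus strand). The Mnt site is a stretch of 30 bases at chr11:74830789-74830818 (plus strand), shown because it holds the same letters as the Mxd4 window.
Mycn: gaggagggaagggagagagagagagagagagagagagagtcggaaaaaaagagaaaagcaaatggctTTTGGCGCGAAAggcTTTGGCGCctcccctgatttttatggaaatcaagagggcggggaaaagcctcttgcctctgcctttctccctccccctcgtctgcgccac
Mxd4: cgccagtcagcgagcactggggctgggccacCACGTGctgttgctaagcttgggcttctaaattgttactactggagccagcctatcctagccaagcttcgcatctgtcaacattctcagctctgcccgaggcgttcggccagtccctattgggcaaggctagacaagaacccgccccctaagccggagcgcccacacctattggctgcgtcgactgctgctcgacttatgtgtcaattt
Mnt: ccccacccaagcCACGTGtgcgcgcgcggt

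CACGTG, the canonical E-box read by MYC and MAX dimers, was found on searching both strands in the windows of Mxd4 and Mnt, 219 and 123 bases before the start. The letters CACGTG were present in 6.02% of all 32851 windows of this length. TTTGGCGC and TTTCGCGC, forms of the E2F motif, were both in the Mycn window, where they share bases, and they occurred in 0.417% and 0.256% of all windows. TATAAA was in the Mycl window and in 12.4% of all windows. The p53 motif, a repeated decamer, was in no member window and in 0.0639% of all windows, and a single decamer was in the Mycl window and in 7.13% of all windows. The DUX4 motif (0.1% of all windows) was in no member window. These motifs were chosen with the members' values known, and a match in a window describes its letters only.

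The libraries held between 23270358 and 56795858 reads in genes, and those of the Dux KO lines were the deepest, so depth and this genotype go together. In the deposited count table the column of Dux KO DMSO 2 repeats that of Dux KO doxorubicin 1 in 54532 of 54532 genes. The tests therefore used 11 libraries, with Dux KO DMSO 1 as the lone library of its group and assumed to vary like the others. The deposited FPKM column of Dux KO DMSO 2 is distinct, and its read counts were recovered from it approximately. The recovered values are given beside the others and used in a further fit of 12 libraries. Duxf3, the Dux gene of this annotation, had no read in the 4 Dux KO libraries, in wild-type cells it had 2 and 0 reads with DMSO and 670 and 685 with the drug, and in p53 KO cells it had 0 and 14 reads with DMSO and 114 and 20 with the drug. Trp53 stayed detectable in the p53 KO lines, at 39.8 to 95.5 CPM (counts scaled to the library's normalised total) against 133 to 193 CPM in wild-type libraries, and where these lines are edited is not given in the sources used here. All 12 markers of naive stem cells had reads in every library. Their summed level was 5323 to 6746 CPM in the DMSO libraries, 1173 and 1057 CPM in drug-treated wild-type cells, 3378 and 2791 CPM in p53 KO and 2514 and 2253 CPM in Dux KO. Markers of 2-cell-like cells (7 of 8 in the table) summed to 1427 and 1699 CPM in drug-treated wild-type cells, against at most 64.3 CPM in any p53 KO library and at most 0.218 CPM in any Dux KO library. Fibroblast markers summed to 26.9 and 30.2 CPM in drug-treated wild-type cells, to 10.3 to 17.1 CPM in the drug-treated knockouts and to 2.33 to 6.19 CPM with DMSO. Primitive endoderm markers summed to 113 and 120 CPM in drug-treated wild-type cells against 60 and 59.1 CPM with DMSO (36.5 to 120 CPM over all libraries), trophectoderm markers to 99.5 and 132 against 66.7 and 63 CPM (48.8 to 132 CPM), and neuroectoderm markers to 42.1 and 55.9 against 21.9 and 23.9 CPM (21.9 to 82.8 CPM). These lists moved in the same libraries as the members described next, and their part in those results was not tested. In bulk RNA, fewer cells that express a gene and less RNA per cell cannot be told apart.

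**Figure D1:**
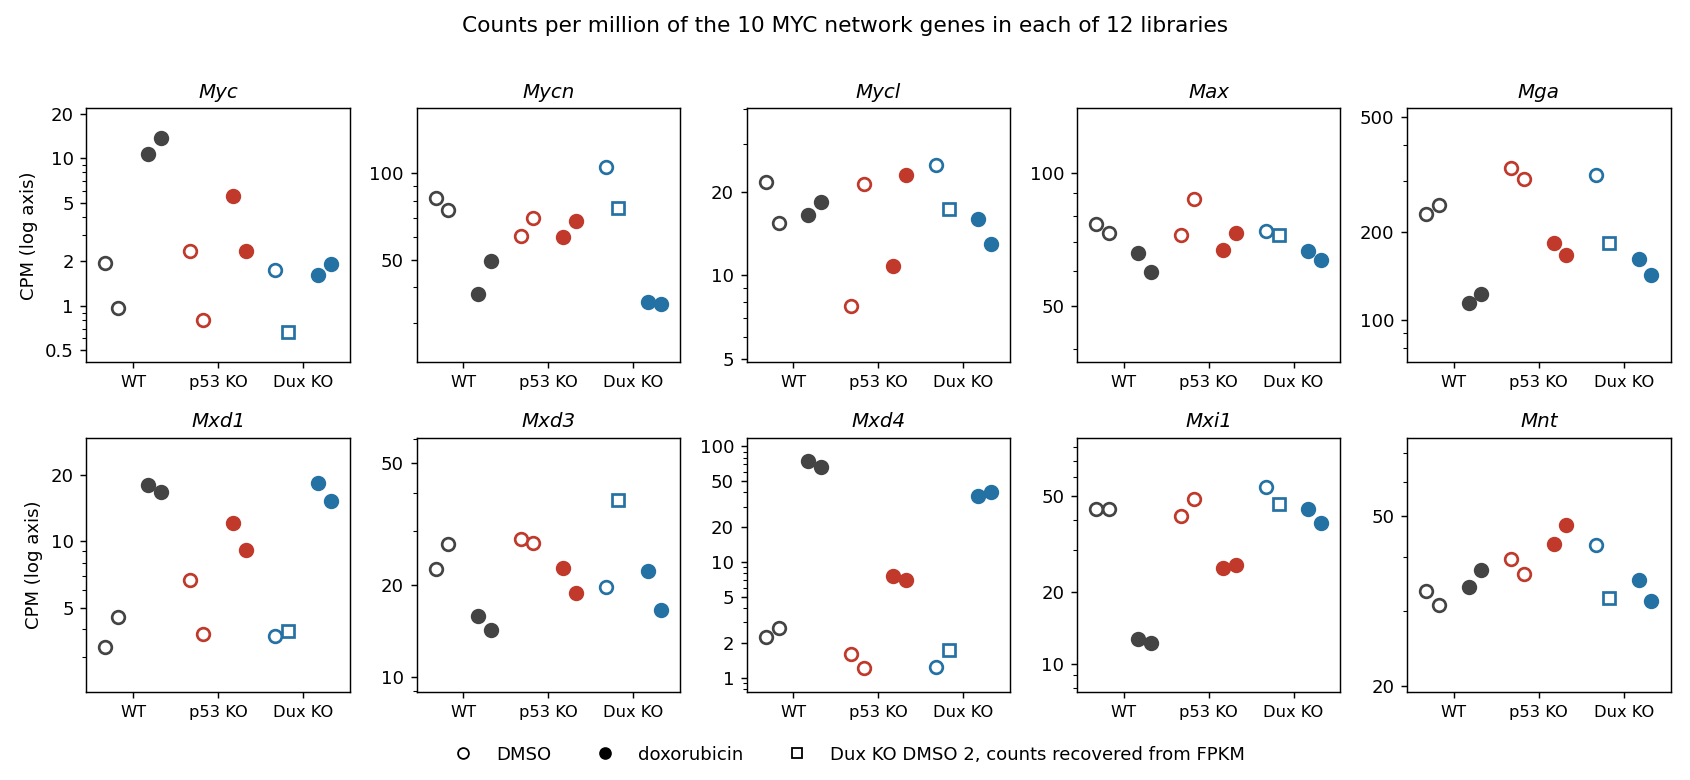
Each panel plots 1 member gene's CPM (log axis) in the 12 libraries, grouped by genotype, with open symbols for DMSO, filled symbols for doxorubicin and a square for the library whose counts were recovered from FPKM. Mxd4 rises in all 3 genotypes, to about 70 CPM in wild-type, 39 CPM in Dux KO and 7 CPM in p53 KO cells, while Myc reaches 10.7 and 13.6 CPM in drug-treated wild-type libraries and stays below 6 CPM elsewhere.

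In untreated wild-type cells the network was led by Mycn and Max, and Myc and Mxd4 were near its bottom. Per kilobase of exon, the mean levels (CPM per kb ± SD, n = 2) were 23.6 ± 1.6 for Mycn, 20.9 ± 0.668 for Max and 15.6 ± 0.764 for Mga. Mxd3 followed at 10.5 ± 1.4 CPM per kb, and then Mnt (6.95 ± 0.362), Mxi1 (6.5 ± 0.0297) and Mycl (4.63 ± 1.13), and the neighbours Mycn and Max, Mnt and Mxi1, and Mxi1 and Mycl differed by less than 2 SD of the more variable gene. The lowest levels were those of Mxd1 (0.559 ± 0.122 CPM per kb), Myc (0.536 ± 0.253) and Mxd4 (0.291 ± 0.0366), the libraries of Mxd1 and Myc overlapping. After the drug Mxd4 stood at 8.3 ± 0.639 CPM per kb in wild-type cells, behind Max (17.5 ± 1.25) and Mycn (13.3 ± 2.43) and near Mga (7.72 ± 0.39) and Mnt (7.72 ± 0.491).

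Doxorubicin raised Myc, Mxd1 and Mxd4 and lowered Mycn, Mga, Mxd3 and Mxi1 in wild-type cells, and Mycl, Max and Mnt did not pass the test. The test was edgeR's quasi-likelihood test with Benjamini-Hochberg adjustment over the 28643 genes tested, with a call at an adjusted p under 0.05, and log2 changes are given ± SE. The 7 of 10 members called are to be read against 52.4% of all genes called (29% higher and 23.4% lower), which leaves little to read from the count itself. DESeq2's size factors move the median over all genes from 0.13 to 0.23 in this response, from 0.05 to -0.07 for the p53 KO difference, and from 0.02 to -0.09 and 0.00 to -0.10 for drug-treated p53 KO and Dux KO against wild type.

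Myc, the founding member of the family (ENSMUSG00000022346, chr15:61985391-61990374), was at 1.94 and 0.972 CPM in the DMSO libraries of wild-type cells and at 10.7 and 13.6 CPM after the drug. Those CPM rest on 50 and 26 reads before and 333 and 408 reads after, so the baseline is imprecise, but the groups do not overlap. In the wild-type libraries 26.53% to 33.4% of counts of 500 or more were odd. The reads may therefore not all be separate fragments, and the cause was not tested. The rise was 3.06 ± 0.59 on the log2 scale, or 8.32-fold (adjusted p = 0.0024, edgeR).

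Mycn (ENSMUSG00000037169, chr12:12936093-12941914), the main MYC gene of these cells by level, went the other way. It fell from 81.6 and 74.1 CPM to 38.1 and 49.4 CPM, a log2 change of -0.83 ± 0.16 (adjusted p = 0.0022, edgeR), with no overlap between the groups. Mycl (ENSMUSG00000028654, chr4:122995652-123002485), whose product is the least potent of the family, was at 21.9 and 15.5 CPM with DMSO and 16.6 and 18.4 CPM with the drug. Its groups overlap, and its log2 change of -0.09 ± 0.47 had an adjusted p of 0.88 (edgeR).

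Max (ENSMUSG00000059436, chr12:76937269-76962201), the obligate partner, was at 76.7 and 73.3 CPM in wild-type DMSO libraries and 66.1 and 59.7 CPM after the drug. The groups do not overlap but the log2 change of -0.25 ± 0.13 did not pass the test (adjusted p = 0.14, edgeR; 0.029 with the replicate block on 11 libraries). On 11 libraries that block, the line number, adds a term for the p53 KO lines only, and on 12 it adds one for the lines of each knockout. The block suits the drug response of a knockout whose lines have a term, which is read within lines. The wild-type libraries have no such term. All groups share the same estimate of the spread, and the block alters the other responses through that estimate. On 11 libraries the SE of the wild-type Myc change went from 0.59 to 0.31 with it, at the same change of 3.06. In comparisons of a knockout with wild type under the same treatment, the lines are the replicates. A line term then takes their spread out of the error. With this block 8 members were called in wild-type cells on 11 libraries (64.5% of all genes) and 7 on 12 (62.6%). Over all 12 libraries Max ranged from 59.7 to 87.6 CPM, the narrowest relative range of the network together with that of Mnt. Mga (ENSMUSG00000033943, chr2:119897228-119969581), the large MAX partner of the Polycomb complex, fell from 231 and 248 CPM to 114 and 123 CPM. This is a log2 change of -1.01 ± 0.12 (adjusted p = 0.00018, edgeR).

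Mxd4 (ENSMUSG00000037235, chr5:34173883-34187720), a MAX-binding repressor known from differentiating cells, had the largest change of the network. It went from 2.25 and 2.69 CPM to 74.2 and 66.6 CPM, a rise of 4.83 ± 0.21 on the log2 scale or 28.4-fold (adjusted p = 4.8e-06, edgeR). Mxd1 (ENSMUSG00000001156, chr6:86647042-86669161), a repressor that marks cells leaving the cycle, rose from 3.34 and 4.56 CPM to 17.9 and 16.6 CPM, by 2.12 ± 0.31 (adjusted p = 0.00055, edgeR). The groups of both genes are far apart in every library.

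Mxi1 (ENSMUSG00000025025, chr19:53310518-53375810), the antagonist known from MYC-driven metabolism, fell from 44.2 and 44.5 CPM to 12.8 and 12.3 CPM. Its log2 change was -1.82 ± 0.14 (adjusted p = 2.1e-05, edgeR), so that in the same cells Mxi1 and Mxd4 moved in opposite directions. Mxd3 (ENSMUSG00000021485, chr13:55325168-55329823), the antagonist tied to S phase, fell from 22.6 and 27.3 CPM to 15.8 and 14.3 CPM. Its log2 change of -0.73 ± 0.20 (adjusted p = 0.013, edgeR) was lost when wild-type DMSO library b was left out (-0.58, adjusted p = 0.098) and with the recovered library in the fit (-0.72, adjusted p = 0.058). Mnt (ENSMUSG00000000282, chr11:74830920-74845725), the broadly expressed antagonist, was at 33.3 and 31 CPM before and 34.1 and 37.3 CPM after, a log2 change of 0.15 ± 0.14 (adjusted p = 0.37, edgeR).

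**Figure D2:**
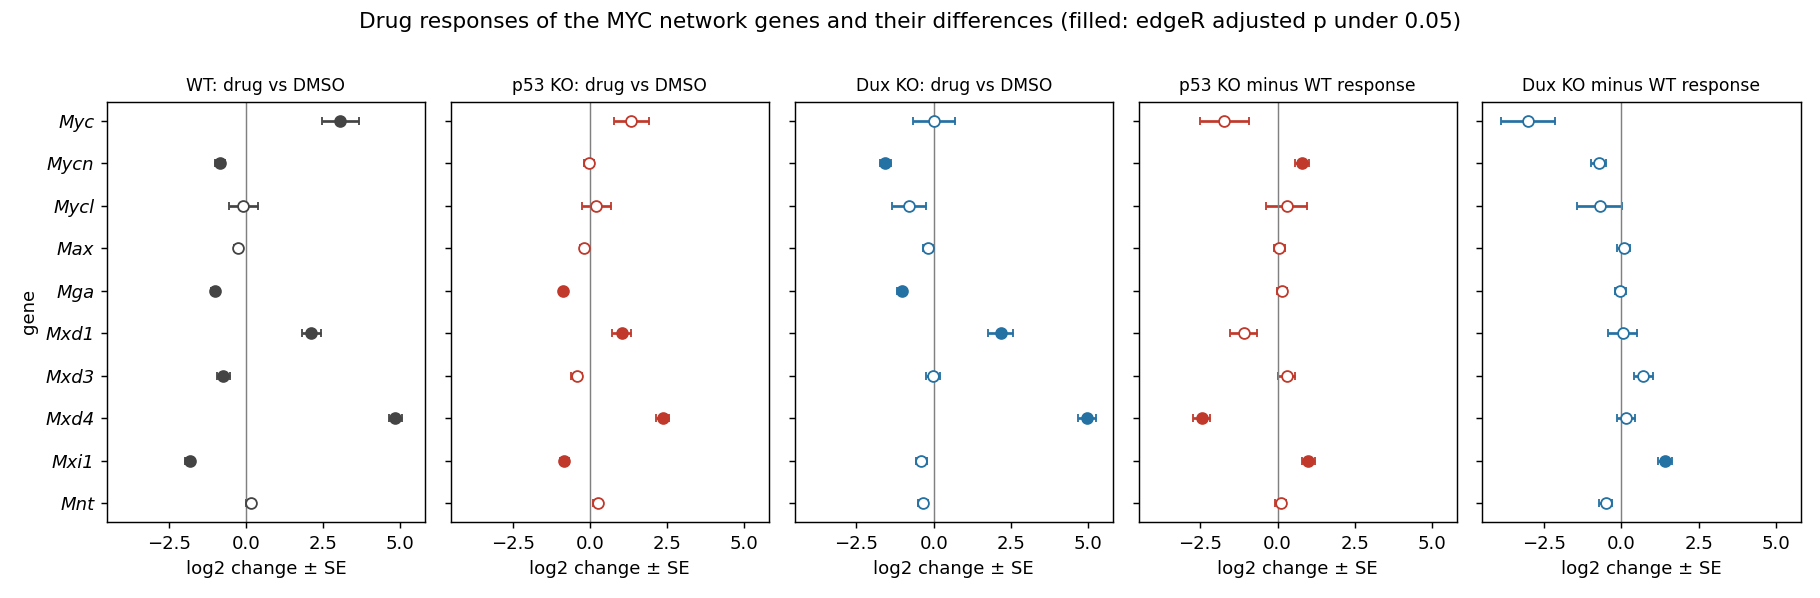
Each panel plots the log2 change ± SE of the 10 members (vertical axis) for the drug response of 1 genotype or for a knockout response minus that of wild type; filled points have an edgeR adjusted p under 0.05. Mxd4 is called higher in all 3 genotypes and differs between p53 KO and wild type (-2.46), and Mxi1 is called in both difference panels (1.00 and 1.42).

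In p53 KO cells 4 members passed the test, 2 in each direction, against 17.4% of all genes (9.31% higher and 8.09% lower). The same drug exposure raised Mxd4 and Mxd1 and lowered Mga and Mxi1. Mxd4 went from 1.61 and 1.2 CPM to 7.53 and 6.92 CPM, a rise of 2.36 ± 0.20 on the log2 scale (5.15-fold, adjusted p = 0.0013, edgeR), and within lines 1 and 2 it was 4.68- and 5.78-fold. Mga went from 334 and 304 CPM to 184 and 167 CPM (-0.86 ± 0.12, adjusted p = 0.0038, edgeR), and both lines moved alike (0.551- and 0.548-fold). The Mga call was lost on log2(FPKM + 1) values with limma (-0.43, adjusted p = 0.15). Mxi1 went from 41.6 and 48.6 CPM to 25.2 and 25.8 CPM (-0.82 ± 0.14, adjusted p = 0.0067, edgeR). That call was lost on unfiltered log2(FPKM + 1) with limma (-0.18, adjusted p = 0.18). Mxi1 lay at 0.191 to 0.815 FPKM over the libraries, and adding 1 to such values shrinks the change. On this scale its wild-type change was -0.49.

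Mxd1 went from 6.65 and 3.8 CPM to 12.1 and 9.14 CPM in p53 KO cells (1.03 ± 0.30, adjusted p = 0.048, edgeR). That call is at the threshold, and leaving out single libraries ended it in 8 of 11 cases, with adjusted p up to 0.16 (0.68 without p53 KO DMSO 2). Mycn stood at 60.5 and 69.8 CPM with DMSO and 59.7 and 68.1 CPM with the drug, so the groups overlap (-0.03 ± 0.16, adjusted p = 0.93, edgeR). Myc had 2.34 and 0.799 CPM with DMSO and 5.55 and 2.36 CPM with the drug, higher in both lines (2.37- and 2.95-fold). Line 1 was above line 2 in both treatments, the groups are barely apart, and its change of 1.34 ± 0.57 did not pass (adjusted p = 0.13, edgeR). With the line number as a replicate block 6 members were called on 11 libraries (37.8% of all genes) and 5 on 12 (30.9%), and Myc passed (adjusted p = 0.005 on 11 libraries and 0.032 on 12), and so it did without p53 KO DMSO 1 (2.30, adjusted p = 0.049).

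The drug response of p53 KO cells differed from that of wild-type cells in 3 members, Mxd4, Mxi1 and Mycn, against 20.2% of all genes (9.9% higher and 10.3% lower), in a test of the difference between the responses. For Mxd4 the difference was -2.46 ± 0.27 on the log2 scale (adjusted p = 0.00066, edgeR), so that the rise was 5.52-fold smaller in p53 KO than in wild-type cells. For Mxi1 it was 1.00 ± 0.20 (adjusted p = 0.0082, edgeR), a smaller fall than in wild-type cells, and on unfiltered log2(FPKM + 1) with limma it was 0.31 and lost its call (adjusted p = 0.082). For Mycn it was 0.80 ± 0.22 (adjusted p = 0.033, edgeR), since its level fell in wild-type but not measurably in p53 KO cells. The Mycn difference was lost when any of 7 of the 11 libraries was left out, with adjusted p up to 0.12, 0.62 without wild-type drug library a being the smallest value, with the recovered library in the fit (adjusted p = 0.072), and with DESeq2 or its size factors (0.68, adjusted p = 0.052 and 0.065).

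The differences of Mxd1 and Myc between p53 KO and wild-type responses were -1.10 ± 0.43 (adjusted p = 0.11, edgeR) and -1.72 ± 0.80 (adjusted p = 0.17, edgeR). With the replicate block they had adjusted p = 0.011 and 0.0097 on 11 libraries and 0.02 and 0.051 on 12, and 5 and 4 members differed, against 37.4% and 32.3% of all genes. For Mga no difference was detectable, at 0.15 ± 0.17 (adjusted p = 0.59, edgeR). After the drug, 5 members differed between p53 KO and wild-type cells, against 43.7% of all genes (21.7% higher and 22% lower). With the replicate block on 11 libraries 8 members differed, against 57.6% of all genes in that fit, and 6 on 12 libraries, against 54.9%. In this comparison the block takes the spread between the p53 KO lines, its replicates, out of the error. Mxd4 was 9.74-fold lower (-3.28 ± 0.19, adjusted p = 1.0e-05, edgeR) and Myc 3.07-fold lower (-1.62 ± 0.55, adjusted p = 0.039, edgeR), while Mxi1 was higher by 1.02 ± 0.14 (adjusted p = 0.00048, edgeR), Mga by 0.57 ± 0.12 (adjusted p = 0.0049, edgeR) and Mycn by 0.55 ± 0.16 (adjusted p = 0.02, edgeR). The Myc difference lost its call without either wild-type drug library (-1.78, adjusted p = 0.086 without a, and -1.43, adjusted p = 0.16 without b), with the recovered library in the fit (adjusted p = 0.05), without p53 KO drug 2 (-1.13, adjusted p = 0.14) and without either Dux KO drug library (adjusted p = 0.063 for both). The Mycn difference lost it without wild-type drug a (0.37, adjusted p = 0.15) without p53 KO drug 2 (0.45, adjusted p = 0.069) and with DESeq2 (0.43, adjusted p = 0.062). The Mga difference lost it with the recovered library in the fit (adjusted p = 0.061) and on unfiltered log2(FPKM + 1) with limma (0.54, adjusted p = 0.061).

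In Dux KO cells 4 members passed the test, 2 in each direction, against 26.5% of all genes (14.5% higher and 11.9% lower). Mxd4 and Mxd1 rose, Mga and Mycn fell, and Myc and Mxi1 did not pass. With the replicate block 7 members passed on 11 libraries, Mycl, Mxi1 and Mnt in addition, against 43.7% of all genes, and 5 on 12 libraries, Mycl in addition (adjusted p = 0.031), against 48.6% of all genes. On 11 libraries the block holds no term for the Dux KO lines. The calls it adds there rest on the shared estimate of the spread, not on a reading within Dux KO lines. Mxd4 had 1.24 CPM in DMSO library 1 and 1.72 CPM in the recovered library 2, against 37.6 and 40.3 CPM after the drug. The rise was 4.97 ± 0.28 on the log2 scale (31.3-fold, adjusted p = 8.0e-05, edgeR), and 4.71 with 12 libraries. Mxd1 went from 3.73 and 3.92 CPM to 18.3 and 15.2 CPM (2.17 ± 0.41, adjusted p = 0.0047, edgeR).

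Mycn fell in Dux KO cells from 105 and 75.6 CPM to 35.6 and 35.1 CPM (-1.57 ± 0.18, adjusted p = 0.0005, edgeR), or by 1.36 on the log2 scale with 12 libraries (adjusted p = 0.00055). Within lines 1 and 2 the level with the drug was 0.338 and 0.465 of that with DMSO. Mga fell from 314 and 184 CPM to 162 and 143 CPM (-1.04 ± 0.14, adjusted p = 0.0011, edgeR). The 2 DMSO libraries of Mga are far apart. With both in the fit the change was -0.72 (adjusted p = 0.027), and with the recovered library in place of DMSO 1 it was -0.27 (adjusted p = 0.2). On log2(FPKM + 1) values with limma, a fit that also holds both DMSO libraries, it was -0.29 (adjusted p = 0.27).

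Myc did not rise measurably in Dux KO cells: it had 1.75 and 0.661 CPM with DMSO and 1.62 and 1.93 CPM with the drug, a log2 change of 0.02 ± 0.68 (adjusted p = 1, edgeR). The lines differed, at 0.929-fold in line 1 and 2.92-fold in line 2, where the DMSO value rests on 30 recovered reads. With 12 libraries the change was 0.54 (adjusted p = 0.53), and with the recovered library in place of DMSO 1 it was 1.42 (adjusted p = 0.19). Mxi1 stayed at 54.7 and 46.5 CPM with DMSO against 44.4 and 38.7 CPM with the drug (-0.40 ± 0.17, adjusted p = 0.11, edgeR), and both lines were a little lower after the drug (0.811- and 0.832-fold).

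The response of Dux KO cells differed from the wild-type response in 1 member, Mxi1, against 5.25% of all genes (2.1% higher and 3.15% lower). The difference was 1.42 ± 0.22 on the log2 scale (adjusted p = 0.01, edgeR) and 1.52 with 12 libraries (adjusted p = 0.004). It lost its call without either wild-type DMSO library (1.42 in both cases, adjusted p = 0.051 without a and 0.056 without b). For Mxd4 the difference was 0.14 ± 0.29 (adjusted p = 0.86, edgeR) and -0.13 with 12 libraries, and for Mxd1 it was 0.04 ± 0.48 (adjusted p = 1, edgeR). With limma the Mxd4 difference was called lower on log2(FPKM + 1), at -0.48 (adjusted p = 0.044, and 0.042 without the filter on low values), and on log2(FPKM + 0.1) it was -0.21 (adjusted p = 0.62). For Mga it was -0.03 ± 0.19 (adjusted p = 0.99, edgeR), but 0.74 with the recovered library in place of DMSO 1.

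For Myc the Dux KO response was lower than the wild-type response by 3.03 on the log2 scale (-3.03 ± 0.87, adjusted p = 0.079, edgeR), which missed the threshold. Over the alternatives this adjusted p for Myc ran from 0.00075 to 0.4, and it was 0.021 with 12 libraries and the replicate block (-2.43), 0.15 with 12 libraries alone (-2.52) and 0.4 with the recovered library in place of DMSO 1 (-1.64). Leaving out any of the 4 p53 KO libraries gave adjusted p from 0.035 to 0.039 at the same difference of -3.04. For Mycn the difference was -0.74 ± 0.24 (adjusted p = 0.12, edgeR; 0.011 with the replicate block on 11 libraries), and -0.54 with 12 libraries (adjusted p = 0.34). With the replicate block 3 members differed on 11 libraries (23.4% of all genes) and 2 on 12 (14.1%). The block on 11 libraries holds no term for the Dux KO lines, so its values here are not read within those lines. Both knockout comparisons use the same wild-type libraries.

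After the drug, 4 members differed between Dux KO and wild-type cells, against 30.1% of all genes (15.6% higher and 14.5% lower), in a comparison of drug-treated libraries alone. Mycn (-0.31 ± 0.16, adjusted p = 0.17, edgeR) was called in addition with the replicate block on 11 libraries (adjusted p = 0.043, with 5 members and 49.4% of all genes called) but not on 12 (adjusted p = 0.12, with 3 members and 44% of all genes called). Myc was 6.82-fold lower (-2.77 ± 0.57, adjusted p = 0.007, edgeR), Mxi1 3.3-fold higher (1.72 ± 0.14, adjusted p = 7.0e-05, edgeR), Mxd4 1.81-fold lower (-0.85 ± 0.17, adjusted p = 0.0063, edgeR) and Mga 1.29-fold higher (0.36 ± 0.12, adjusted p = 0.049, edgeR). The Myc difference lost its call without either Dux KO drug library (-2.65 without line 1, adjusted p = 0.069; -2.90 without line 2, adjusted p = 0.05). The Mxd4 difference lost it without wild-type drug a (-0.78, adjusted p = 0.056) or Dux KO drug 1 (-0.81, adjusted p = 0.063). The Mga difference lost it in 6 of 11 cases, with adjusted p up to 0.27 and values from 0.27 (without Dux KO drug 1) to 0.48 (without wild-type drug b), and with DESeq2 (0.26, adjusted p = 0.17).

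With DMSO alone no member was called between p53 KO and wild-type cells (0.887% of all genes called, 0.14% higher and 0.747% lower) or between Dux KO and wild-type cells (1%, 0.656% higher and 0.346% lower), by edgeR's test. Without adjustment, 2 members were under 0.05 in the first of these comparisons, Mga and Mxd4, and 4 in the second, Mycn, Mga, Mxd4 and Mnt. With the replicate block on 11 libraries 2 members, Mga and Mxd4, were called for p53 KO (11.5% of all genes) and 3, Mga, Mxd4 and Mycn, for Dux KO (17.8%). Calls with the block leave out spread between knockout lines, which are the replicates in these comparisons. DESeq2 called Mxd4 in the Dux KO comparison (adjusted p = 0.024) and none in the p53 KO comparison. With 12 libraries and the replicate block Mxd4 was called lower in both knockouts (adjusted p = 0.043 for p53 KO and 0.035 for Dux KO, with 6.76% and 11.2% of all genes called), from levels of 2.25 and 2.69 CPM in wild type, 1.61 and 1.2 CPM in p53 KO and 1.24 and 1.72 CPM in Dux KO. Mycl differed between the lines more than between the groups: p53 KO line 1 had 7.75 and 10.8 CPM with DMSO and drug, and line 2 had 21.4 and 23.1 CPM.

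Summed per kilobase of exon, the MYC family stood at 30.9 and 26.7 CPM per kb in wild-type cells with DMSO and 19.6 and 24.6 with the drug, and at 38.8 and 27.5 against 15.3 and 14.6 in Dux KO cells. The summed antagonists lay between 23.9 and 30.6 CPM per kb in all 12 libraries, while their make-up differed. Myc made up 2.31% and 1.34% of the summed Myc, Mycn and Mycl level in wild-type DMSO libraries and 20.1% and 20.3% after the drug, against 8.95% and 3.18% in drug-treated p53 KO and 3.89% and 4.87% in drug-treated Dux KO cells. Mycn still held the larger part everywhere, with 59% and 61.1% in drug-treated wild-type cells as the lowest shares. These shares are descriptions and were not tested.

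Among the 5 antagonists Mxd1, Mxd3, Mxd4, Mxi1 and Mnt, Mxd4 went from 1.11% and 1.24% of the summed level in wild-type DMSO libraries to 32.2% and 30%. The share was 14.5% and 18% in drug-treated Dux KO cells and 3.52% and 3.39% in drug-treated p53 KO cells. Mxi1 went from 27.1% and 25.4% to 6.92% in both drug-treated wild-type libraries, and was at 21.3% and 21.5% in drug-treated Dux KO cells. The ratio of summed antagonists to summed MYC family was 0.775 and 0.962 in wild-type cells with DMSO and 1.39 and 1.06 with the drug. It was highest in drug-treated Dux KO cells, at 1.99 and 1.81, where Mycn had fallen and Myc had not risen measurably, and 1.1 and 0.884 in drug-treated p53 KO cells, within the 1.31 and 1.02 of their DMSO libraries or below.

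**Figure D3:**
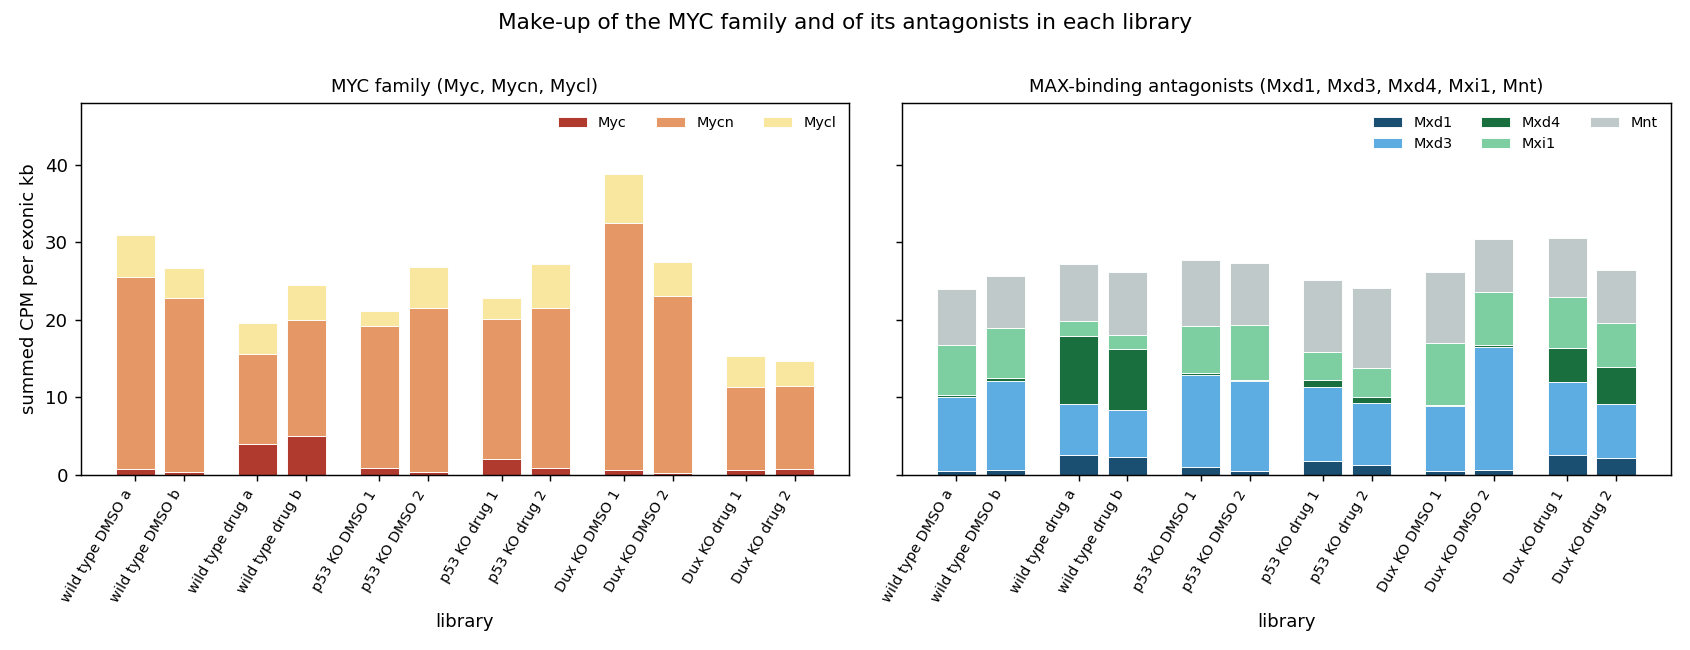
Stacked bars give the summed level (CPM per exonic kb, linear axis from 0) of the MYC family at left and of its antagonists at right in each of the 12 libraries. The MYC family is lowest in the drug-treated Dux KO libraries (15.3 and 14.6), and Mxd4 (dark green) makes up at most 1.24% of the antagonists with DMSO and at least 3.39% after the drug.

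Of 40 growth genes that MYC is known to drive, 31 fell and 2 rose in wild-type cells, where 23.4% of all genes fell and 29% rose, with a median log2 change of -1.0 against 0.13 over all genes tested. In p53 KO cells 17 fell, none rose and 23 were not called (median -0.41, all genes 0.18; 8.09% of all genes fell and 9.31% rose), the count of 17 running from 5 with limma on unfiltered FPKM to 25 with the replicate block on 11 libraries, and in Dux KO cells 25 fell and 2 rose (median -0.85, all genes 0.00; 11.9% fell and 14.5% rose). Mycn, called lower in wild-type and Dux KO cells, was not called in p53 KO cells, and a link between Mycn and these counts was not tested. Ldha, which makes lactate, changed by -2.19 ± 0.14 on the log2 scale in wild-type cells (adjusted p = 1.0e-05), Hk2, the first step of glycolysis, by -2.08 ± 0.14 (adjusted p = 1.3e-05), and Shmt2, of mitochondrial serine use, by -2.03 ± 0.18 (adjusted p = 3.4e-05, all edgeR). The 2 that rose were Ccnd2, a D-type cyclin (2.72 ± 0.42, from 1.26 ± 0.128 to 8.32 ± 1.11 CPM, SD, n = 2, adjusted p = 0.00069, edgeR), and Cad, the first enzyme of pyrimidine synthesis (1.79 ± 0.13, adjusted p = 1.6e-05, edgeR). In drug-treated p53 KO cells 23 of the 40 were higher than in wild-type cells and 3 lower, where 21.7% and 22% of all genes were. In drug-treated Dux KO cells 9 were higher and 9 lower, where 15.6% and 14.5% of all genes were.

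The response of the growth targets differed between p53 KO and wild-type cells in 18 genes, 17 with a higher response and 1 with a lower one. Of all genes 9.9% had a higher and 10.3% a lower response. The median difference was 0.49 against 0.05 over all genes. The count of 17 was 11 with the recovered library in the fit, 8 without wild-type DMSO b and 11 without wild-type drug b. Between the Dux KO and wild-type responses 1 target differed, Ldha, where 5.25% of all genes did. The Dux KO response of Ldha was -0.25 ± 0.17 (difference 1.94 ± 0.22, adjusted p = 0.002, edgeR). Cad changed by 0.14 ± 0.13 in p53 KO cells (adjusted p = 0.47) and its difference from the wild-type response was -1.65 ± 0.18 (adjusted p = 0.00066, both edgeR).

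Of 20 cofactors and corepressors of the network, 2 rose and 5 fell in wild-type cells, 2 rose and 3 fell in p53 KO and 2 rose and 6 fell in Dux KO cells, with medians of -0.11, -0.20 and -0.14 against 0.13, 0.18 and 0.00 over all genes. The 5 that fell in wild-type cells are about the share of all genes that fell there (23.4%) and the 2 that rose are fewer than the share that rose (29%), and in the knockouts 8.09% and 11.9% of all genes fell and 9.31% and 14.5% rose. Wdr5, a scaffold that ties MYC to chromatin, changed by -1.78 ± 0.13 (adjusted p = 1.7e-05), Sin3a, the corepressor scaffold used by MXD proteins, by -1.32 ± 0.19 (adjusted p = 0.00051), and Smarcb1, a chromatin-remodelling subunit that binds MYC, by -0.67 ± 0.11 (adjusted p = 0.0012, all edgeR, wild type). Kat2a, the acetyltransferase GCN5, rose by 1.06 ± 0.20 in wild-type cells (adjusted p = 0.0021, edgeR). Trrap, the scaffold that brings acetyltransferases to MYC, rose by 0.45 ± 0.17 (adjusted p = 0.047, edgeR), a call that was lost on leaving out any of 6 of the 11 libraries (adjusted p up to 0.35, without wild-type drug b, at 0.28).

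Of 14 genes that set the stability of MYC proteins, 1 rose and 8 fell in wild-type cells, none rose and 4 fell in p53 KO, and 2 rose and 7 fell in Dux KO cells (medians -0.41, -0.40 and -0.49). Of all genes 29%, 9.31% and 14.5% rose and 23.4%, 8.09% and 11.9% fell in these responses. Fbxw7, the ubiquitin ligase subunit that marks MYC for breakdown and a known p53 target, rose by 1.39 ± 0.16 in wild-type (adjusted p = 0.00013) and 1.34 ± 0.20 in Dux KO cells (adjusted p = 0.0017), and its p53 KO response differed from wild type by -1.64 ± 0.22 (adjusted p = 0.0015, all edgeR). Skp2 (-1.31 ± 0.14, adjusted p = 9.2e-05) and Btrc (-1.30 ± 0.12, adjusted p = 4.1e-05), also ligase subunits, and Usp28 (-1.11 ± 0.26, adjusted p = 0.0063, all edgeR), which removes ubiquitin from MYC, fell in wild-type cells. The Usp28 call was lost on log2(FPKM + 1) with limma (-0.60, adjusted p = 0.06).

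Of the partners of Mga in its Polycomb complex, 7 of 9 fell in wild-type cells, where 23.4% of all genes did, 3 in p53 KO (8.09% of all genes) and 3 in Dux KO cells (11.9%), and none rose (medians -0.63, -0.22 and -0.39). In the test of the difference from the wild-type response, 1 of the 9 differed in p53 KO cells, Pcgf6, and none in Dux KO cells. Of all genes 20.2% and 5.25% differed, so these counts are not above the shares of all genes. Cbx3, a chromodomain protein, changed by -1.61 ± 0.18 (adjusted p = 0.00011), Pcgf6, the subunit that defines this complex, by -0.85 ± 0.12 (adjusted p = 0.0004), and Tfdp1, the partner of E2F factors, by -0.94 ± 0.26 (adjusted p = 0.015, all edgeR). The Tfdp1 call was lost on leaving out any wild-type library (-1.02 to -0.91, adjusted p up to 0.065). Of 15 germline genes that MGA and MAX are known to hold silent, 3 rose and 3 fell in wild-type cells, 2 rose in p53 KO and 4 in Dux KO cells, with none lower in either knockout (medians -0.11, 0.14 and 0.86). Not all were silent here, since wild-type DMSO means were 50.3 CPM for Hormad1, 48.1 for Smc1b and 19.4 for Mov10l1. With DMSO the median of the list in Dux KO against wild type was -1.39 (all genes 0.01). The median of 0.86 starts from that lower level, read from the lone Dux KO DMSO library. The shares of all genes are 29% higher and 23.4% lower in the wild-type response, and 9.31% and 14.5% higher in those of p53 KO and Dux KO cells. The response differed from that of wild-type cells in 2 of the 15 in p53 KO cells, 1 in each direction, and in 1 in Dux KO cells. Against 20.2% and 5.25% of all genes, these counts leave little to read. Taf7l, a germ-cell TFIID subunit, rose from 5.65 ± 0.692 to 35.8 ± 0.384 CPM in wild-type cells (SD, n = 2; 2.66 ± 0.35, adjusted p = 0.00031, edgeR) and also in p53 KO (1.16 ± 0.34, adjusted p = 0.046) and Dux KO cells (3.40 ± 0.49, adjusted p = 0.0014). Tdrd1, of the piRNA pathway, rose by 3.12 ± 0.70 (adjusted p = 0.0053) from 0.269 ± 0.169 CPM and reached 0.05 without wild-type DMSO b (2.59), and Ddx4, the germ-cell helicase VASA, changed by -0.89 ± 0.17 (adjusted p = 0.002, both edgeR). Both calls were lost on unfiltered log2(FPKM + 1) with limma (0.07, adjusted p = 0.25 for Tdrd1 and -0.13, adjusted p = 0.2 for Ddx4). The other 3 calls, Hormad1 (0.87), Smc1b (-1.66) and Mov10l1 (-1.25), had adjusted p of 0.029 to 0.039 and were lost on leaving out any wild-type library, with adjusted p up to 0.17.

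**Figure D4:**
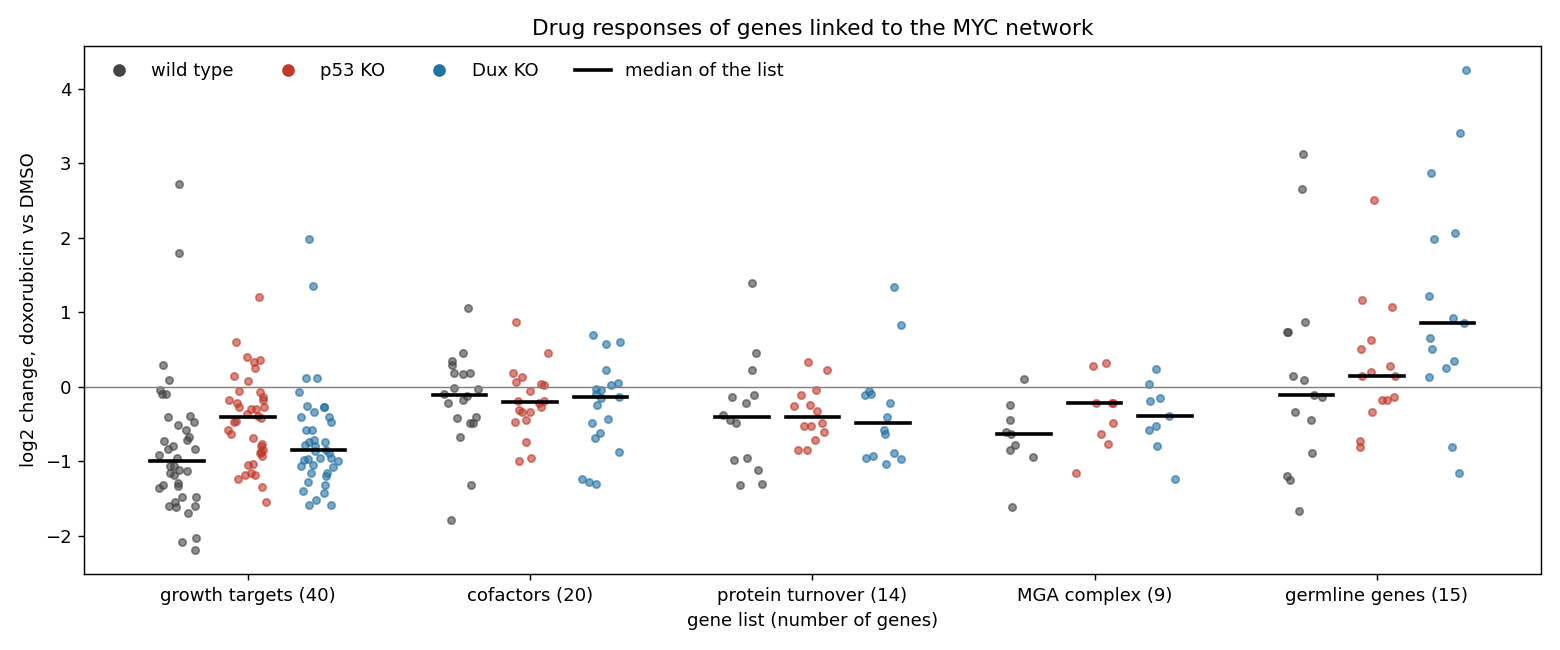
Points are single genes of 5 lists and give the log2 change with doxorubicin (vertical axis) in wild-type, p53 KO and Dux KO cells, with a black bar at each list's median. The growth targets have medians of -1.0, -0.41 and -0.85, and the germline genes spread widely around medians of -0.11, 0.14 and 0.86.

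The genes of the parallel MLX branch moved in opposite directions: Mlxipl, the glucose-sensing factor ChREBP, rose in wild-type cells by 2.03 ± 0.28 (adjusted p = 0.00035) and Mlxip by 0.53 ± 0.16 (adjusted p = 0.021), while the change of their partner Mlx was -0.90 ± 0.20 (adjusted p = 0.0057, all edgeR). The Mlxip call was lost without any of the 4 wild-type libraries (0.41 to 0.60, adjusted p up to 0.18). Mlxipl rose in Dux KO cells by 3.91 ± 0.40 (adjusted p = 0.00033, edgeR), and its difference from the wild-type response, 1.88 ± 0.44 (adjusted p = 0.046, edgeR), was -0.00 with the recovered library in place of DMSO 1.

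Some members overlap other transcripts, and reads in the shared bases may not all come from the member. How the authors' counting assigned those reads was not tested. Gm42846, antisense to Mxd4 over 1001 bases, went from 12 and 8 reads to 595 and 437 reads in wild-type cells, at most 31.8% of the Mxd4 count in any library, and its log2 changes were 5.45 ± 0.45 in wild-type, 1.62 ± 0.45 in p53 KO and 5.23 ± 0.61 in Dux KO cells. Gm10197, opposite to Mxi1 over 201 bases, had at most 16.2% of the Mxi1 count and changed by -1.76 ± 0.27 in wild-type cells (adjusted p = 0.00067, edgeR). Prelid1 overlaps Mxd3 by 105 bases on the other strand and had 4501 to 12646 reads, up to 1141% of the Mxd3 count. In wild-type cells Prelid1 went from 211 and 207 CPM to 152 and 150 CPM, the same direction as Mxd3. Its part in the Mxd3 change was not tested. AC133451.2 lies opposite to Mxi1 over 5146 bases and has no counts of its own here. The overlaps of Max with Gm47218 and of Mxd1 with Gm44292 carried at most 2.6% and 3.28% of the member's count. Pvt1, the long noncoding gene beside Myc, did not pass the test in wild-type cells, where its change was 0.40 ± 0.47 (adjusted p = 0.49, edgeR), and after the drug it was lower in p53 KO than in wild-type cells (-2.80 ± 0.51, adjusted p = 0.002, edgeR), with 6.03 and 3.32 against 30.6 and 34.8 CPM.

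The genes most like Myc over the 12 libraries, by Pearson r of log2(FPKM + 1) among the 14614 genes that reached 1 FPKM in 2 or more libraries, were Gm4782 (r = 0.982), Kctd12 (0.978), AA986860 (0.978), Gm8038 (0.978) and Gm26778 (0.975). All 5 had their highest mean in drug-treated wild-type cells, Kctd12 at 12 FPKM against 1.04 FPKM with DMSO and 1.52 FPKM in drug-treated Dux KO cells. The genes most like Mycn were Gm5454 (r = 0.966), Hcfc1 (0.95), Gm17067 (0.945), Zfp518b (0.939) and 2610318N02Rik (0.938). Hcfc1, which encodes the cell-cycle cofactor HCF-1, had mean levels of 10.8 and 6.74 FPKM in wild-type cells without and with the drug, 10.1 and 12.7 FPKM in p53 KO and 11.5 and 6.34 FPKM in Dux KO. The 12 libraries fall into treated and untreated groups, which such a correlation follows, so these values are descriptions.

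The authors' deposited table of their own comparisons gives the same directions for the members called in the wild-type response and in both drug-treated comparisons. In the authors' deposited table the wild-type response is 4.86 for Mxd4, 3.10 for Myc, -1.78 for Mxi1 and -0.80 for Mycn. For drug-treated Dux KO against wild-type cells the authors' deposited table has -2.79 for Myc and 1.71 for Mxi1, and for p53 KO it has -3.29 for Mxd4 and 0.54 for Mycn (adjusted p = 0.12 there).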

How the data were processed

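PolyA RNA-seq libraries of 6 groups were analysed from the authors' deposited tables. The authors' count table holds whole-number read counts per gene, the authors' deposited FPKM table holds FPKM, and the authors' deposited comparisons hold log2 fold changes and adjusted p-values. Per the submitters' processing notes, TopHat2, DESeq and DESeq2 and the mm10 build were used, with no versions or order given. FPKM followed the full gene span with introns for 98.46% of 12423 genes, so deposited counts divided by span give FPKM. The 6 group-average columns were not used. Gene positions came from GENCODE M21 (54495 of 54532 identifiers matched).

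After filterByExpr (minimum count 10), 28643 genes were tested with the quasi-likelihood test of edgeR 4.0.16 (R 4.3.3) on TMM-scaled libraries, with 11 libraries and 5 residual degrees of freedom. CPM used TMM-scaled library sizes. Reads of Dux KO DMSO 2 were recovered from its FPKM, where 3123 low values were all within 0.15 of a whole read. Applied to the other libraries, the same step returned 96.3% to 98.42% of counts within 1 read or 1%, and 77.28% to 89.8% exactly. Of counts of 500 or more, 36.46% were odd in the recovered library, against 26.36% to 27.68% in the other Dux KO libraries. The cause was not tested. Alternatives were DESeq2 1.42.0, other scaling and filters, limma 3.58.1 on log2(FPKM + 1) and log2(FPKM + 0.1), each library left out, and the replicate block. The fits with limma used the FPKM of all 12 libraries, Dux KO DMSO 2 included, without TMM scaling. They therefore differ from the main fit in both the libraries and the scale. For genes below 1 FPKM, adding 1 shrinks the log2 change. Knockout line numbers pair the libraries because a number names the same line in both treatments by the labels, and the line differences correlated between treatments (r = 0.432 for p53 KO and 0.184 for Dux KO). The wild-type libraries are not paired. The script was tested on simulated data. P-values measure the spread between these libraries. All groups share the same estimate of it, which mixes wild-type duplicates with knockout libraries from different lines. Leaving out a library can therefore move the p-value of a comparison that does not hold this library, at the same log2 change.

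The members and lists were chosen with earlier results of these data known. Named are all 10 members and, of each list, up to 3 called genes with the largest wild-type change in each direction. Which uncalled log2 values are given, which list genes are followed through the alternatives and which motifs were searched was decided after their values were seen. The marker lists are for naive, 2-cell-like and fibroblast cells, primitive endoderm, trophectoderm and neuroectoderm. No promoter entry was used for Myc.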

Additional observations from a re-analysis of the deposited data

Results flagged for a closer look

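Responses to the drug that differed between a knockout and wild-type cells, by edgeR's test of the difference itself, are given here as log2 values. Among the members these were, for p53 KO, Mycn (0.80, adjusted p = 0.033), Mxd4 (-2.46, adjusted p = 0.00066) and Mxi1 (1.00, adjusted p = 0.0082), and, for Dux KO, Mxi1 (1.42, adjusted p = 0.01). Mxi1 was thus the only member called in both differences, which share the wild-type libraries.

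Among the list genes that the text names, Kat2a (-1.37, adjusted p = 0.0096), Fbxw7 (-1.64, adjusted p = 0.0015), Cad (-1.65, adjusted p = 0.00066) and Hormad1 (-1.60, adjusted p = 0.032) had a lower response in p53 KO than in wild-type cells. Wdr5 (0.82, adjusted p = 0.015), Pcgf6 (0.63, adjusted p = 0.029), Skp2 (1.07, adjusted p = 0.0056), Btrc (0.59, adjusted p = 0.035), Ldha (0.95, adjusted p = 0.0091), Hk2 (0.92, adjusted p = 0.011), Shmt2 (1.74, adjusted p = 0.0019) and Ddx4 (1.17, adjusted p = 0.0083) had a higher one. In Dux KO cells the responses of Mlxipl (1.88, adjusted p = 0.046), Ldha (1.94, adjusted p = 0.002) and Ddx4 (1.40, adjusted p = 0.02) were higher than in wild-type cells.

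The p53 KO call was lost for Btrc (adjusted p up to 0.15) and Hormad1 (up to 0.11) on leaving out any of 8 of the 11 libraries, for Pcgf6 (up to 0.12) on leaving out any of 5 and for Wdr5 (up to 0.067) any of 3. For Kat2a, Ldha and Hk2 it was lost without wild-type DMSO b (adjusted p = 0.053, 0.051 and 0.052). On unfiltered log2(FPKM + 1) with limma it was lost for Mxi1 (0.31, adjusted p = 0.082), Hk2 (0.98, adjusted p = 0.081), Btrc (0.34, adjusted p = 0.21) and Hormad1 (-0.84, adjusted p = 0.091). The Dux KO call was lost for Mlxipl on leaving out any of 7 of the 11 libraries (-0.00 without Dux KO DMSO 1, up to 2.07) and for Ddx4 in 7 (0.93 to 1.50, adjusted p up to 0.098).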

How the results depend on the processing

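Of 28 calls for single members, 14 held under all of the 20 alternatives that gave a value (19 of the 28 had one on the filtered FPKM scales) and 14 were lost under at least 1; none of the 28 changed direction. Members called with limma on log2(FPKM + 1), log2(FPKM + 0.1) and unfiltered log2(FPKM + 1) were 4, 4 and 6 in the wild-type response, 1, 1 and 2 in p53 KO, 2, 2 and 3 in Dux KO, 2, 0 and 3 for the Dux KO difference, and 2 with either filtered scale for drug-treated Dux KO against wild type; the filter left fewer members to test. With the replicate block on 11 libraries, calls were 7 in Dux KO, 5 and 3 for the p53 KO and Dux KO differences, 2 and 3 for the DMSO comparisons and 8 for drug-treated p53 KO against wild type. With the block and 12 libraries they were 2 for the Dux KO difference and 1 in each DMSO comparison. With 12 libraries alone 3 members differed between drug-treated p53 KO and wild-type cells. DESeq2 called 2 for the Dux KO difference and 1 between Dux KO and wild type with DMSO. Leaving out single libraries gave 0 to 2 for the Dux KO difference, 3 to 6 for drug-treated p53 KO and 1 to 4 for drug-treated Dux KO against wild type. The block changed no other count of members by over 1.5 times. The cause of these shifts was not tested.

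Uncalled values near 0 changed sign. Wild-type Mycl was 0.01 with DESeq2's scaling, 0.00 with DESeq2 and -0.32 to 0.18 on leaving out libraries, and wild-type Mnt was -0.00 to 0.22. Mycn in p53 KO was 0.08 without DMSO 2, 0.06 without drug 1 and 0.26, 0.28 and 0.26 on the FPKM scales, and Myc in Dux KO was -0.11 to 1.42 on leaving out libraries. The Dux KO difference of Mga was 0.29 with 12 libraries, 0.34 with the block too, 0.74 without DMSO 1, -0.13 to 0.10 without single other libraries (0.02, 0.10 and 0.06 without wild-type DMSO a, wild-type drug b and Dux KO drug 2) and 0.40, 0.57 and 0.40 on the FPKM scales. That of Mxd1 was -0.02 with both DESeq2's scaling and DESeq2, -0.01 with 12 libraries with or without the block, and -0.20 to 0.25 on leaving out libraries. That of Mxd4 was -0.13 and -0.12 with 12 libraries without and with the block, -0.33 without DMSO 1 and -0.48, -0.21 and -0.48 on the FPKM scales. That of Mlxipl was -0.00 to 2.07 on leaving out libraries, -0.00 being without Dux KO DMSO 1.

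Growth targets (added after seeing the data) called higher in wild-type cells were 1 on both filtered FPKM scales. In p53 KO the lower calls were 8, 9 and 5 and the higher calls 4, 4 and 5 on the FPKM scales, with 1 higher by DESeq2, 4 with the block, 3 with the block and 12 libraries and 0 to 3 on leaving out libraries. For the p53 KO difference the lower calls were 2 with DESeq2's scaling or unfiltered FPKM, 3 with DESeq2 and with the block on 11 or 12 libraries, and 1 to 3 on leaving out libraries, and the higher calls were 11 with 12 libraries and 8 to 22 on leaving out libraries. With 2 libraries a group, the SE of the wild-type log2 change was 0.59 for Myc (24 to 90 reads with DMSO), 0.21 for Mxd4 (36 to 78 reads) and 0.47 for Mycl (212 to 1298 reads over all libraries).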
